A study of Mus musculus with 3 samples.

Results

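The replication-dependent histone genes are the clustered genes that supply the linker histone H1 and the core histones H2A, H2B, H3 and H4 during DNA synthesis. Members were all genes that GENCODE M21, an annotation of the mouse assembly GRCm38 (mm10), names with Hist and a number. The annotation holds 70 such genes, and 65 of them were among the 22457 genes measured: 6 of class H1, 19 of H2a, 15 of H2b, 12 of H3 and 13 of H4. The other 5 (Hist1h2aj, Hist1h2bh, Hist1h2bm, Hist2h2bb and Hist3h2bb-ps) were not analysed here. The 65 members were measured by polyA plus RNA-seq in primary regulatory T cells, the CD4 T cells that restrain other immune cells, from adult mice of 4 months. The labels trace the cells to haematopoietic cells of the bone marrow, name no strain, allele or treatment, and number 3 libraries as technical replicates of biological replicate 1. There was therefore 1 group and no comparison between conditions, and every p-value below measures the spread between these libraries, which may be technical. No label says whether animals were pooled.

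A nucleosome wraps DNA around an octamer of H2A, H2B, H3 and H4, and H1 binds the linker DNA between nucleosomes. The replication-dependent genes lack introns and their messages usually end not in a polyA tail but just after a conserved stem-loop, which is bound by the stem-loop binding protein (Slbp) and formed by cleavage guided by the U7 particle. Some of these genes can also be cleaved further downstream at a polyA signal and then carry a tail, as most messages of the replacement histone genes do, which are transcribed outside S phase too. A library selected for polyA RNA therefore reads the tailed messages, and values below are levels of RNA caught by that selection, not of all histone RNA. In bulk samples fewer cells of a type and less RNA per cell cannot be told apart.

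The 3′ ends set the frame for the values. A histone stem-loop of 16 bases was found in the 300 transcript bases after the stop codon of 44 of the 64 members with a coding transcript (68.8%), against 4 of 21122 other coding genes (0.0189%). In 16 of the other 20 the M21 transcript ends under 50 bases after the stop codon. A motif past that end could not be found. The stem-loops found began 21 to 58 bases after the stop codon (median 31.5). The sites below belong to the tested members that carry the motif and, as a contrast, to 1 member without counts. Each is read from the M21 transcript on its own strand, with GRCm38 coordinates, and capitals mark the stem-loop.
Hist1h1e (chr13:23621777-23621802, minus strand): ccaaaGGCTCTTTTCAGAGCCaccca
Hist1h1c (chr13:23739507-23739532, plus strand): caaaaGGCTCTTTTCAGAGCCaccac
Hist1h2ae (chr13:23570663-23570688, minus strand): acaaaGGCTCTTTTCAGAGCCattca
Hist3h2a (chr11:58955167-58955192, plus strand): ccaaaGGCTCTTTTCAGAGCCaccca
Hist3h2ba (chr11:58949344-58949369, plus strand): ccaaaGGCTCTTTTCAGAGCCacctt
Hist2h2ac (chr3:96220413-96220438, minus strand): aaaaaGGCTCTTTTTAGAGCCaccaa
Hist1h4d (chr13:23581945-23581970, plus strand): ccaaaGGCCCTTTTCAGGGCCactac
Hist1h4c (chr13:23698084-23698109, minus strand): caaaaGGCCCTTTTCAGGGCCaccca
Hist4h4 (chr6:136803993-136804018, minus strand): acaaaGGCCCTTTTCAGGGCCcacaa
Hist2h4 (chr3:96262934-96262959, minus strand): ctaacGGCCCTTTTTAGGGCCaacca
Hist2h2aa1 (chr3:96246027-96246052, plus strand): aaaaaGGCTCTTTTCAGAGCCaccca

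The 44 stem-loops fell into 8 distinct sequences. The form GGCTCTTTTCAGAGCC was carried by 24 members with 843 counts over the 3 libraries, none of them an H4 gene. The form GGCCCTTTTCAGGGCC was carried by 7 members, all H4 genes, with 335 counts. Members with the same stem-loop therefore ranged widely in count: Hist1h1e held 303 counts and Hist2h2aa1 none, with the same 16 bases. No 50-base window of Hist2h2aa1 is unique to its transcripts, so its lack of counts does not show that the RNA was absent. Hist1h2ac, with the same stem-loop and 85.9% unique windows, held 1 count. Some tested members also carry a polyA signal near their annotated end, shown here in capitals for the 3 with the most counts of those whose transcripts run past the stem-loop to it.
Hist1h1c (chr13:23740332-23740357, plus strand): gtatgcttctAATAAAaagcgtttag
Hist1h2ae (chr13:23570529-23570554, minus strand): cagcttctccAATAAAtgggtcaatt
Hist3h2a (chr11:58956787-58956812, plus strand): gtatatgcccAATAAAataagagtac

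Together the members held 452, 660 and 456 counts in libraries 1, 2 and 3. These were 0.0141%, 0.0204% and 0.0159% of all counts, with 95% exact binomial intervals of 0.0128 to 0.0155%, 0.0189 to 0.0221% and 0.0145 to 0.0174%. Library totals were 3206781, 3228215 and 2872350 counts, so that 3 counts equalled 0.936, 0.929 and 1.04 CPM (counts divided by the library total, times 1000000). Every interval and floor here allows for counting error and nothing else. Summed over members the level was 168 ± 32.8 CPM (SD, n = 3), and library 2 stood above the other two. Its CPM was 1.36 times the mean of libraries 1 and 3.

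The counts lay with few members. Of the 65, 16 reached 1 CPM in every library, 21 had 10 or more counts over the 3 libraries, 25 had 1 to 9, and 19 had none. A count of 0 in 1 library alone allows an expected count of up to 3 there, and 0 in all libraries together allows less in each. Hist1h1e alone held 19.3% of all member counts, the 5 highest members 60.3% and the 10 highest 81.8%. A mean count of at least 10 per library, which the test required, was reached by 11 members.

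The linker class H1 gave the most counts, 193, 281 and 165, or 40.8% of the member total from 6 genes (68.2 ± 16.4 CPM). Class sums were not divided by length, so the order of classes holds for counts and CPM only. For example, Hist1h1e has 660 coding bases and Hist1h4d, an H4 gene, 312. H4, which pairs with H3 at the centre of the nucleosome, gave 128, 167 and 143 counts from 13 genes (47.1 ± 6.34 CPM). H2a gave 84, 153 and 101 counts from 19 genes (36.3 ± 10.6 CPM), and H2b, its dimer partner, 38, 44 and 40 from 15 genes (13.1 ± 1.12 CPM). H3 gave 9, 15 and 7 counts from 12 genes (3.30 ± 1.18 CPM), the lowest sum of the classes in every library. Library 2 had the highest sum in H1, H2a, H3 and H4, but only in H1 did its binomial interval lie clear of those of both other libraries. In H2a it overlapped that of library 3 only, and in H3 and H4 those of both other libraries. The H2b sums lay between 11.8 and 13.9 CPM with overlapping intervals. Without members under 50% unique windows (defined below) the H3 sum was 1.27 CPM. Genes at 1 CPM or more in every library numbered 5 of 6 in H1, 3 of 19 in H2a, 3 of 15 in H2b, 0 of 12 in H3 and 5 of 13 in H4.

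**Figure D1:**
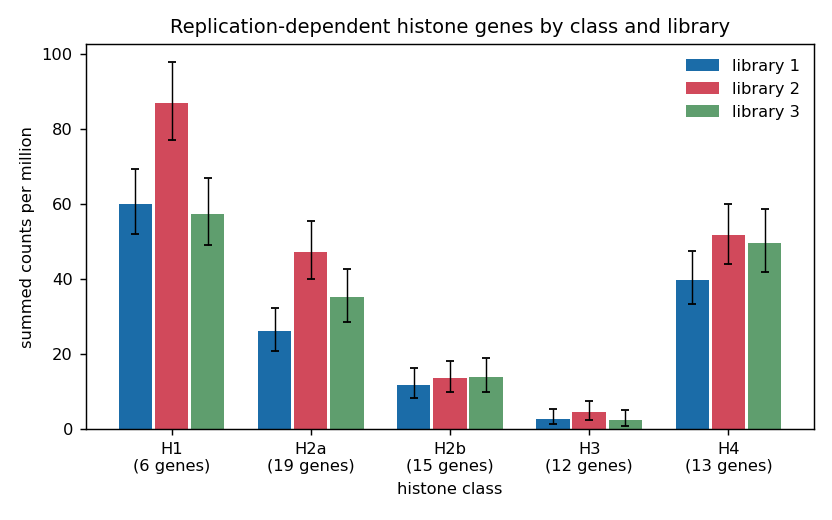
Bars give the summed CPM (y axis from 0) of each histone class (x axis, with its number of genes) in libraries 1, 2 and 3, and error bars are 95% exact binomial intervals of each library's share of counts. H1 reached 60.2, 87.0 and 57.4 CPM, and H3 stayed at 2.81, 4.65 and 2.44 CPM.

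Among the linker genes, Hist1h1e (H1.4; chr13:23620629-23622558, minus strand) had 101, 135 and 67 counts. Library 3 was lowest and library 2 highest, 1.75 times library 3 after scaling (95% exact interval from the 2 counts 1.30 to 2.39). These 2 libraries were picked as highest and lowest from the same counts, which the interval does not allow for. It was the 1 member of 11 tested whose libraries differed by Pearson's chi-square test against Poisson spread (Benjamini-Hochberg adjusted p = 0.00463 over 10282 genes). The same test called 27.6% of all genes, and 8.71% were called with library 2 highest, so that 1 of 11 members was a smaller share than the first and close to the second. A negative binomial test that allows the spread common to all genes called 0.914% of genes and no member. There, Hist1h1e had an adjusted p of 0.778, and 1 of 11 members had an unadjusted p under 0.05, against 6.74% of all genes. Without library 3 the chi-square adjusted p of Hist1h1e was 0.146. Its exons overlap those of Hist1h2be on the same strand, which had 0, 3 and 1 counts, and of Gm11398, not analysed here.

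Hist1h1c (H1.2) had 42, 70 and 51 counts and Hist1h1b (H1.5) had 32, 55 and 40. Both were highest in library 2 and lowest in library 1, unlike Hist1h1e, and neither passed the chi-square test (adjusted p = 0.125 and 0.164). Hist1h1a (H1.1) had 14, 11 and 3 counts and Hist1h1d (H1.3) had 4, 10 and 4, both too low for the test. Hist1h1t, the testis H1, had 0 counts in all libraries. By class median the H1 genes are also the most distinct in sequence, with 98.9% of their 50-base windows found in no other gene's transcripts. Hist1h1e lay below that median at 68.0%, and below the H4 gene Hist1h4d at 89.8%.

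Of the H2a genes 3 were tested. Hist1h2ae had 35, 63 and 41 counts (adjusted p = 0.0801), Hist3h2a had 27, 47 and 39 (0.166) and Hist2h2ac had 10, 26 and 11 (0.0521), all by the same chi-square test. Each was highest in library 2, which for Hist2h2ac stood well apart from 2 nearly equal libraries. Without library 3 Hist1h2ae and Hist2h2ac passed (adjusted p = 0.0390 and 0.0494), and Hist2h2ac also passed with plain totals as library sizes (0.0428). Without library 3 the test called 19.5% of all genes, and without library 1 neither gene passed (adjusted p = 0.351 and 0.150). All 3 have an antisense gene over their exons in M21, none of them analysed here. The strand setting is not given in the sources used here, so reads of a gene and its antisense partner cannot be told apart. The exons of Hist3h2a also overlap Trim17 on the same strand (1, 5 and 2 counts). No count was seen for 9 H2a genes.

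Of the H2b genes only Hist3h2ba was tested, with 14, 14 and 15 counts, nearly the same in each library (adjusted p = 0.888 by chi-square). The next by CPM was Hist1h2bg with 7, 7 and 3 counts. Hist3h2ba and Hist3h2a lie together on chromosome 11 (chr11:58948920-58949533 and chr11:58954685-58956830, both plus strand).

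The H4 genes encode the same small core histone from several loci. Hist1h4d had 73, 88 and 53 counts, with library 3 lowest as for Hist1h1e, but did not pass the chi-square test (adjusted p = 0.218). Hist2h4 had 22, 25 and 26 counts (0.737), Hist1h4c had 11, 25 and 22 (0.133) and Hist4h4 had 13, 15 and 17 (0.688). After scaling these 3 were highest in library 3. Over all 11 tested members, 7 were highest in library 2, 4 in library 3 and none in library 1, against 35.5%, 29.7% and 34.8% of all tested genes. With plain totals as library sizes, 8 members were highest in library 2 and 3 in library 3. Hist1h4c was nearly tied, at 7.74 and 7.66 CPM in libraries 2 and 3. Since the members share libraries and were not drawn at random, no test was made of that split.

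Among the H3 genes, none passed the filter for the test. The highest was Hist1h3e with 3, 5 and 1 counts, followed by Hist2h3b with 2 in each library. The 2 highest genes of a class gave 72.9% of H1 counts (Hist1h1e and Hist1h1c), 74.6% of H2a (Hist1h2ae and Hist3h2a), 65.5% of H4 (Hist1h4d and Hist2h4), 49.2% of H2b (Hist3h2ba and Hist1h2bg) and 48.4% of H3 (Hist1h3e and Hist2h3b).

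**Figure D2:**
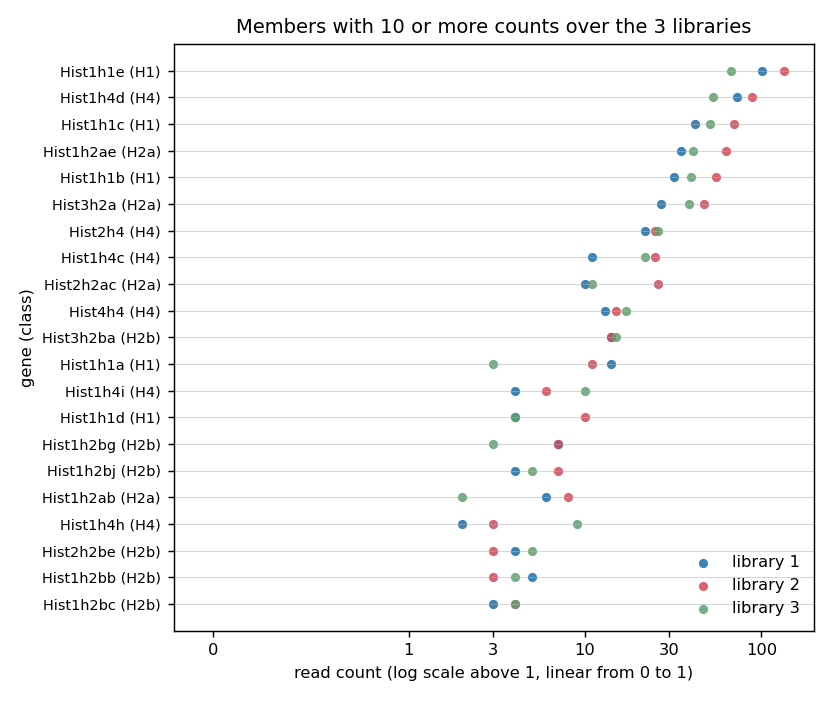
Read counts (x axis, log scale above 1) of the 21 members with 10 or more counts over the 3 libraries (y axis, ordered by mean CPM, class in brackets), with 1 point for each library and n = 3 libraries. Library 2 is rightmost in the 6 highest members, from Hist1h1e (135) to Hist3h2a (47), and the genes below Hist3h2ba have 14 counts or fewer in every library.

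The excess of library 2 was not carried by 1 gene. Without Hist1h1e the sums were 351, 525 and 389 counts, and library 2 was 1.33 times the mean of libraries 1 and 3. The 54 members too low for the test had 72, 97 and 74 counts, a ratio of 1.25. The 7 tested members that were highest in library 2 gave 1.46, a value that their choice fixes upward.

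Levels of different genes were compared as CPM per kb of coding sequence. Counts were per gene and not limited to coding bases, so the order below depends on this divisor. For example, Hist1h4d has 312 coding and 1138 exon bases, and Hist1h1b 672 and 743. The order was led by Hist1h4d (73.2 ± 14.1), Hist1h1e (48.8 ± 14.0), Hist1h2ae (37.9 ± 11.0), Hist3h2a (31.0 ± 8.39) and Hist1h1c (27.4 ± 6.73). Then came Hist2h4 (25.3 ± 3.53), Hist1h1b (20.3 ± 5.26), Hist1h4c (20.1 ± 7.91), Hist4h4 (15.6 ± 3.05), Hist2h2ac (12.8 ± 6.84) and Hist3h2ba (12.2 ± 1.32). Each neighbouring pair in this order overlapped within 1 SD over libraries (n = 3). No member exceeded 0.229 counts per coding base. The median over all 64 members with a coding length was 0.724 CPM per kb, against 1.43 over 21784 genes, and over the 46 members with a count 2.28, against 14.4 over 14847 genes with a count.

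The replacement and variant histone genes, most of whose messages carry polyA tails, served as the comparison within the histone family. Of the 18 matched, 9 reached 1 CPM in every library and 8 had no count, and their median was 13.5 CPM per coding kb. Per kb of exon it was 2.42, against 0.379 for the members. H3f3b, an H3.3 gene, was the highest at 371 CPM per coding kb with 472, 485 and 459 counts. In libraries 1 and 3 it alone had more counts than all 65 members together, and it stood beside 31 counts over the 3 libraries for all 12 H3 members. H2afv, an H2A.Z gene, had 337, 374 and 285 counts, H2afy, a macroH2A, 293, 341 and 316, and H2afj 234, 303 and 244. Of the 9 tested, 1 passed the chi-square test (11.1%, against 27.6% of all genes tested). It was H1f0, the replacement linker histone, with 142, 177 and 84 counts (adjusted p = 0.000293 by chi-square). H1f0 had the same order of libraries as Hist1h1e. Members and replacement genes differ in number of near-identical copies as well as in their ends, and the part of either in these levels was not tested.

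**Figure D3:**
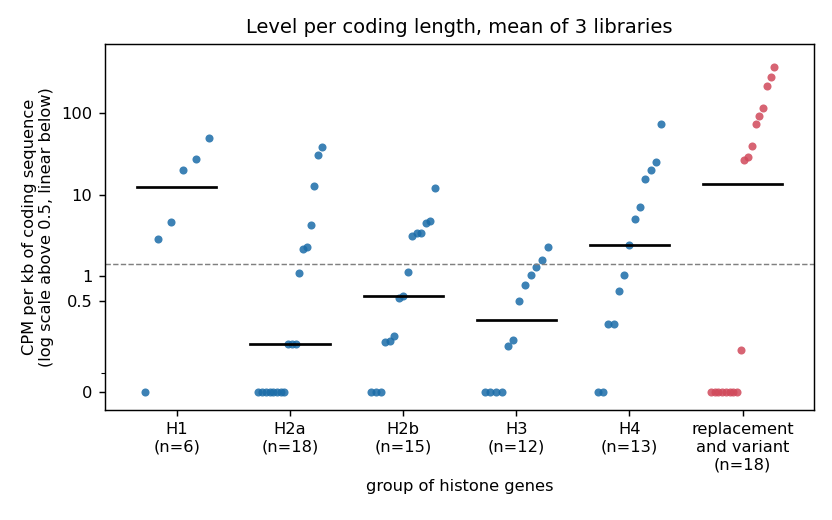
Mean CPM per kb of coding sequence (y axis, log scale above 0.5 and linear below) for each gene, by histone class and for replacement and variant histone genes (x axis), with black bars at the group medians and a dashed line at the median of all genes, 1.43. The highest member is Hist1h4d at 73.2 and the highest replacement gene H3f3b at 371, and 19 members (18 of them with a coding length and so drawn) have no count.

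Members were then split by the annotation alone, without their counts. In 22 members an M21 transcript runs 108 to 4884 bases past the stem-loop (median 603, called long ends), in 22 it stops 3 to 74 bases past it (median 32, short ends), and in 20 no stem-loop was found. The long-end members held 359, 516 and 351 counts, 79.4%, 78.2% and 77.0% of the member counts in the 3 libraries. The short-end members held 32, 59 and 42 counts, and those with no stem-loop found 61, 85 and 63. Of these last 20 members, 16 have a transcript that ends under 50 bases after the stop codon. Those 16 held 186 counts over the 3 libraries, and a stem-loop past their annotated end would have been missed. Long-end members made up 9 of the 11 tested and 12 of the 16 at 1 CPM or more in every library. Their median was 3.80 CPM per coding kb, against 0.474 for short ends and 0.277 for members with no stem-loop found. Per kb of exon, a length that includes the long ends, the medians were 1.42 for long and 0.373 for short ends.

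This split depends on the gene models. The split and the exon lengths come from M21, while the counts were made on GENCODE M4 models. Those were not available here, so the gene ends used in counting are not known. RefSeq ends 41 of the same 44 genes 4 to 8 bases past the stem-loop, and only Hist1h2be, Hist1h2bp and Hist1h3e further on. With RefSeq ends the long-end share was 0.893% of the member counts, so the concentration is one of M21 ends only. The files give no position of reads within a gene. Long-end genes also had more distinct sequence, with a median of 75.3% unique windows against 36.9%. Among members with at least 50% unique windows, 19 long-end genes held 1217 counts (median 7.04 CPM per coding kb) and 6 short-end genes 39 counts (median 1.16).

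The tested members outside the long-end group were Hist2h2ac, a short-end gene, and Hist1h1b, whose M21 transcript ends at its stop codon, so that no stem-loop could be looked for. A polyA signal (AATAAA or ATTAAA, on the transcript strand) stood in the last 50 bases of 12 of 22 long-end members (54.5%), and of 15 of 48 members with 50 or more bases after the stop codon (31.3%). Among other coding genes the share was 73.4% of 20266. The 12 long-end members with a signal held 603 counts and the 10 without one 623, Hist1h1e and Hist1h4d among the latter. A match is a description of letters and does not show use of a site.

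**Figure D4:**
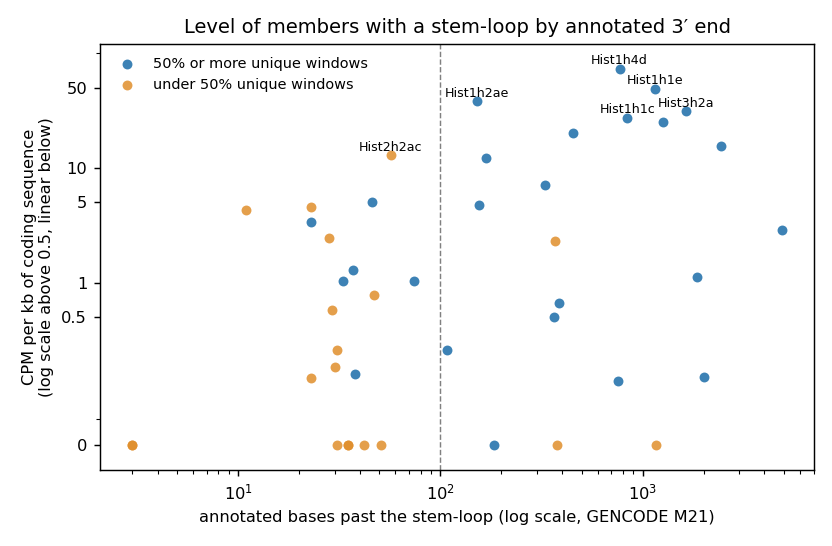
Mean CPM per kb of coding sequence (y axis, log scale above 0.5 and linear below) of the 44 members with a stem-loop against the annotated M21 bases past it (x axis, log scale), with the dashed line at the 100 bases that define a long end and colour for the share of unique windows. On this coding-length scale the highest short-end member is Hist2h2ac at 12.8, and 8 long-end members exceed it, up to Hist1h4d at 73.2.

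Copies of 1 histone class share long runs of bases, and the sequence of a read from such a run does not tell which gene it came from. In 34 of the 65 members fewer than 50% of 50-base windows were unique among all transcripts, and in Hist2h2aa1, Hist2h2aa2, Hist2h3b and Hist2h3c1 none was. Hist2h3b still had 2 counts in each library, and the gene those reads came from is uncertain. Of the 34, 16 had 0 counts, against 3 of the 31 others. The 34 held 134 counts, 8.55% of the member total. Median unique shares were 98.9% for H1, 60.5% for H4, 50.3% for H2b, 38.0% for H3 and 32.4% for H2a. The treatment of reads with several matches is not given in the sources used here, so a count of 0 in these genes does not show that the RNA was absent, and levels of H3 and H2a genes are uncertain. Of the tested members only Hist2h2ac was under 50% (45.0%).

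By position, 53 members lie on chromosome 13 with 1221 counts (77.9%), 9 on chromosome 3 with 146, 2 on chromosome 11 with 156 and 1 on chromosome 6 with 45. In the RefSeq promoters (300 bases around the gene start, GRCm38.p6, 59 members matched) TATAAA was found on either strand in 35 (59.3%), against 14.2% of 27025 promoters. CCAAT on either strand was found in 50 (84.7%), against 37.9%. All matched H1, H2a, H2b and H3 promoters held CCAAT, while 3 of 12 H4 promoters did. The promoters are not all separate stretches, since 12 pairs of H2a and H2b genes start 176 to 306 bases apart on opposite strands. Paired promoters can share bases, and the same match can count for both genes.

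Genes that make and remove histone messages were mostly detected. Of 22 matched genes 21 reached 1 CPM in every library and 20 were tested. The chi-square test called 4 of the 20, against 27.6% of all genes tested. Of the 4, 1 was highest in library 1 (Tut7, a terminal uridylyl transferase) and 3 in library 2 (Lsm10 of the U7 particle, Lsm1 and Snapc5). Slbp had 502, 535 and 472 counts and Npat, the S phase activator of histone genes, 487, 477 and 410, and neither passed (adjusted p = 0.840 and 0.697). The highest were Cpsf3, Cpsf1, Tut7 and Wdr33, subunits of cleavage complexes apart from Tut7. The lowest were both of U7 processing: Lsm11, the partner of Lsm10, with 7, 6 and 6 counts and Zfp473 with 7, 1 and 0.

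DNA replication genes, active in the same phase as the members, summed to 2456, 2447 and 2349 CPM, without the library 2 excess of the histone sum. Of 26 tested, 3 passed the chi-square test (11.5%, against 27.6% of all genes tested). Mcm4 was highest in library 1, and Rrm2 (370, 495 and 309 counts) and Tk1 (80, 108 and 50), both of nucleotide supply, were highest in library 2. Mitosis genes summed to 1046, 1098 and 729 CPM, lowest in library 3. Of these genes 12 of 18 passed (66.7%, against the same 27.6%), 4 highest in library 1 and 8 in library 2. Of the 94 tested genes on these lists, replacement histones and chaperones included, 1 passed the negative binomial test, against 0.914% of all genes tested.

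Markers of other cells also differed between libraries. Regulatory T cell markers summed to 2988, 2902 and 3029 CPM, and 8 of 8 reached 1 CPM in every library. Of these 8, 3 passed the chi-square test (37.5%, against 27.6% of all genes tested). Cd4 (1983, 1721 and 1440 counts) was highest in library 1, and Il2ra (1217, 1107 and 1252) and Cd3g (1202, 1206 and 1187) were highest in library 3 after scaling. Plasma cell markers summed to 41.2, 451 and 113 CPM (6 genes, 4 at 1 CPM or more in every library). Igha (4, 1007 and 149 counts) and Jchain (92, 389 and 129) made up most of the library 2 sum, Sdc1 had 0, 8 and 0 counts, and Mzb1 and Derl3 were not highest there by CPM. Neutrophil lineage markers summed to 1.87, 79.6 and 11.8 CPM (12 genes, none in every library, Prtn3 and Ctsg at 0). Ngp (1, 96 and 3 counts), S100a8 (0, 77 and 11), Camp (3, 36 and 0) and S100a9 (0, 29 and 7) made up most of the library 2 sum. Mmp8, Mpo and Lcn2 were not highest there by CPM. Erythroid markers summed to 104, 343 and 291 CPM (11 genes, 4 in every library, the 4 globin genes at 0 in library 1). Gata1 among them had 259, 196 and 220 counts and was highest in library 1. Hba-a1, Hba-a2 and Klf1 were highest in library 3 by CPM. B cell markers were at 259, 328 and 431 CPM. Library 2, with the highest histone sum, was also highest in the summed plasma cell, neutrophil and erythroid markers, and their part in the histone counts was not tested.

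**Figure D5:**
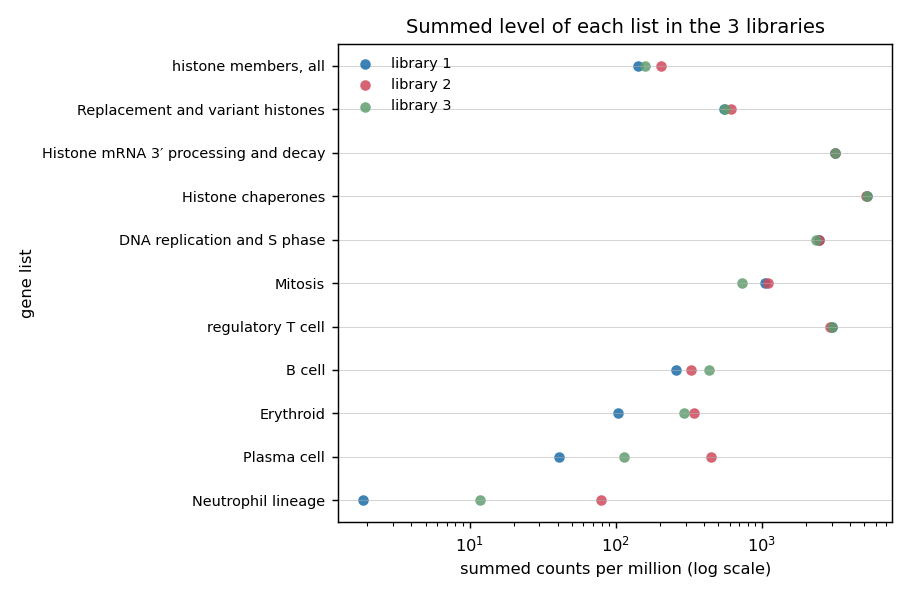
Summed CPM (x axis, log scale) of all histone members and of each other gene list (y axis) in libraries 1, 2 and 3, with 1 point for each library. The members run from 141 to 204 CPM and the replication list from 2349 to 2456, while plasma cell markers run from 41.2 to 451 and neutrophil markers from 1.87 to 79.6.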

How the data were processed

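The authors deposited, for each of 3 libraries, whole-number counts of reads per gene on mm10. The gene models were GENCODE M4, per the descriptions deposited with the files. Not given in the sources used here are aligner, counter, strand setting, read length and duplicate removal. Of 22457 identifiers 22195 matched GENCODE M21, whose names, coordinates and transcripts were used, and the other 262 held 0.117% of the counts. CPM was computed by total count, and levels between genes were divided by the longest coding sequence. Libraries were compared per gene by Pearson's chi-square against a Poisson expectation of the 3 counts (2 degrees of freedom), with totals times TMM factors (0.990, 1.02 and 0.993, edgeR 4.0.16 in R 4.3.3) as sizes. Tested were the 10282 genes whose mean count was 10 or more, with Benjamini-Hochberg adjustment over all of them and a threshold of 0.05. The test was tried on simulated data. A negative binomial version used edgeR's common dispersion (CV 12.5%). Stem-loops were searched as a motif of 16 bases in M21 transcripts, and unique windows were 50-base runs found in the transcripts of no other gene on either strand, since no genome was used here. Promoters came from RefSeq (GRCm38.p6).

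The members and lists were chosen with earlier results of these data known. Of the list entries, H3f3c, Zcchc11 and Ahsp did not match. Named were all members with a mean count of at least 10, the 2 highest of each class by CPM, members past the test and, of each list, the 4 highest and those past the test, by name or number, while the choice of other names followed their values. Also tried were size factors of DESeq2 1.42.0, totals without factors, other filters, thresholds, lengths and windows, leaving out each library and, chosen after seeing the data, RefSeq gene ends and the sum without Hist1h1e. Software was Python 3.11.15 with pandas 2.3.3, scipy 1.17.1, numpy 2.4.6 and, for plots, matplotlib 3.10.9.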

Additional observations from a re-analysis of the deposited data

How the results depend on the processing

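No paired analysis was possible because the labels give 1 group only. The count of members past the chi-square test, 1 (Hist1h1e), was 2 with plain totals (Hist2h2ac added), 0 under the negative binomial test, and 0 to 2 when each library was left out. The shares of all genes called were 27.9% with plain totals, 0.914% under the negative binomial test, and 16.5%, 9.38% and 19.5% without libraries 1, 2 and 3. The member count was 0 without library 2 and 2 without library 3 (Hist1h2ae and Hist2h2ac). Without library 2, 1 member had an unadjusted p under 0.05 by chi-square, against 22.5% of all genes. Of the 94 tested genes on the other histone and cell cycle lists 27 passed the chi-square test, against 27.6% of all genes. Under the negative binomial test 1 passed and 11 had an unadjusted p under 0.05, against 6.74% of all genes. From 10 to 22 passed the chi-square test when each library was left out. Members at 1 CPM or more in every library numbered 16, and 7 at 5 CPM. The median member level of 0.724 CPM per coding kb was 0.379 per kb of exon, and 0.529 to 1.02 when each library was left out. The long-end share of 78.2% was 81.4% with a limit of 50 bases (25 members), 65.4% with 300 bases (17 members), 84.9% without members under 50% unique windows and 0.893% with RefSeq ends. In each of these settings the cause was not tested. The other 31 alternatives of these summary results stayed within 1.5 times or 1 SD of the reported value. The log2 ratio of library 2 to the others changed sign in 3 members that did not pass the test. With library 1 or library 3 left out it ran from -0.017 to 1.15 for Hist1h4c (0.45 with all libraries), from -0.26 to 0.15 for Hist2h4 (-0.07) and from -0.38 to 0.17 for Hist4h4 (-0.14), the lower value in each case without library 1. The summed level ran from 136 CPM without Hist1h1e to 182 CPM without library 1. Depth limits the low members: 54 of 65 were not tested, and 1 CPM was about 3 counts.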

Other observations

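Head-to-head pairs, in which neighbouring genes on opposite strands start within 1000 bases of each other, numbered 12 among the members, and all 12 joined an H2a to an H2b gene across 176 to 306 bases. In 7 pairs the genes together held fewer than 10 counts over the 3 libraries. In the pair with the most counts, Hist1h2ae had 35, 63 and 41 counts and Hist1h2bg 7, 7 and 3. Hist2h2ac had 10, 26 and 11 counts and its partner Hist2h2be 4, 3 and 5. In the pair of Hist1h2ac and Hist1h2bc the H2b gene was the higher, with 3, 4 and 4 counts against 1, 0 and 0. Overlap of M21 exons with another gene touched 24 members, 21 of them antisense.

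Histone chaperones, which carry new histones to DNA, were all measured at 1 CPM or more in every library (21 of 21). Of these, 7 passed the chi-square test (33.3%, against 27.6% of all genes tested), 3 highest in library 2 and 2 in each of the others. The highest were Atrx (3993, 3741 and 3720 counts), Rbbp4, Ssrp1 and Daxx. Chaf1a, a subunit of the replication-coupled assembly factor, was the lowest with 21, 20 and 15 counts. Monocyte and macrophage markers summed to 84.5, 87.7 and 110.0 CPM and progenitor markers to 8.11, 9.29 and 12.5 CPM.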
